A study of Mus musculus with 3 samples.

Results

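The genes described here are 39 mouse genes of chromosome 16 whose human counterparts lie in band 22q11, 30 of them in the interval that is lost in the common form of 22q11 deletion (DiGeorge) syndrome and 9 in its distal flank. They were chosen by gene symbol. The rule used no measured value, but earlier results of these data were known when the genes were chosen. Each gene was found once, with status OK, in all 3 tables, out of 38205 gene identifiers in all. RNA had been sequenced from LSK cells, the lineage-negative, Sca1-positive, c-Kit-positive fraction of C57Bl/6 fetal liver at E14.5 (embryonic day), in which blood stem cells and multipotent progenitors are found. The embryos were wild-type (WT), hemizygous for a DNMT3B7 transgene or homozygous for it. The transgene encodes a shortened form of DNMT3B. The full-length DNMT3B is an enzyme that methylates DNA, and the activity of the shortened form was not examined here. Neither the promoter of the transgene nor the founder line is given in the sources used here. The cells of 4 to 5 embryos went into each library and there was 1 library per genotype, so no difference below has a replicate check, no p-value is given, and each value compares libraries.

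The interval is known because a deletion on 1 of the chromosomes is enough to cause heart, thymus, parathyroid, palate and neuropsychiatric defects. TBX1, a T-box transcription factor of the pharyngeal tissues, accounts for much of the heart and thymus phenotype, and its neighbours have unrelated functions that range from microRNA processing (DGCR8) and histone deposition (HIRA) to citrate transport in mitochondria (SLC25A1). In the mouse the genes are kept together on chromosome 16, in an order that differs from the human one. DNA methyltransferases act on CpG dinucleotides, which are concentrated in the promoters of many housekeeping genes.

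Levels are given as rescaled FPKM, that is, the deposited fragments per kilobase and sequencing depth divided by 4245 in every library, and are called values below. Where 3 values are given they are those of the WT, the hemizygous and the homozygous library, in that order. A difference is the log2 ratio of value + 1, so that small values do not give large ratios, and a gene was measured when it had a value of at least 1 in 1 of the libraries compared. Most low values (65.2% to 67.7% per library) were whole multiples of a fixed step within 0.05, which was taken as 1 fragment, and the estimated fragments gave a 95% counting interval for each ratio that covers counting error only. The estimates came to 3033330, 3017520 and 2318250 fragments, of which the 39 genes held 21768, 23046 and 20460. Values could be read only in parts of the genome. Of constitutive genes within those parts 17 of 18 were high, against 13 of 320 elsewhere, and the comparisons cover 1454 genes, 826 of them on chromosome 16. None of the 7 LSK markers looked up was in a readable part, and Ly6a, which encodes Sca1, was listed at 0 in all 3 libraries, so the cell type was not checked on its defining markers. Mitochondrial mRNAs accounted for 64.3%, 60.6% and 51.7% of the fragments on these genes, and the part of this share in the results was not tested. All directions below are those on the deposited scale, on which the median log2 ratio of all genes compared was -0.04 for homozygous versus WT, 0.02 for hemizygous versus WT and -0.06 for homozygous versus hemizygous. Scaling the libraries to the same sum adds about 0.21 to a log2 ratio of the hemizygous and 0.56 to one of the homozygous library, which turns every lower homozygous versus WT value among the measured genes to a higher one.

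Most of the genes were expressed in WT LSK cells. A value of at least 1 was found for 34 of 39 (87.2%), beside 63.7% of the 611 protein-coding genes read on chromosome 16, and a value of at least 100 for 18 (46.2%), beside 24.1%. The median was 86.5 for the 39 genes and 15.1 for the 611. The 611 include the 39 genes themselves and also many olfactory receptor and keratin-associated genes listed at 0 in the WT library, which lower the shares and the median. All 9 genes of the distal flank reached a value of 1, as did 25 of the 30 of the common deletion interval, and the medians of these groups were 130.2 and 76.4. The 5 genes that stayed under 1 in all 3 libraries were Tbx1, Gsc2, Scarf2, Serpind1 and P2rx6. In bulk RNA, fewer cells that express a gene and less RNA per cell cannot be told apart. The plot of levels by role shows that the 3 libraries lie close together for most genes and that the genes of the cell surface are the lowest group.

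**Figure D1:**
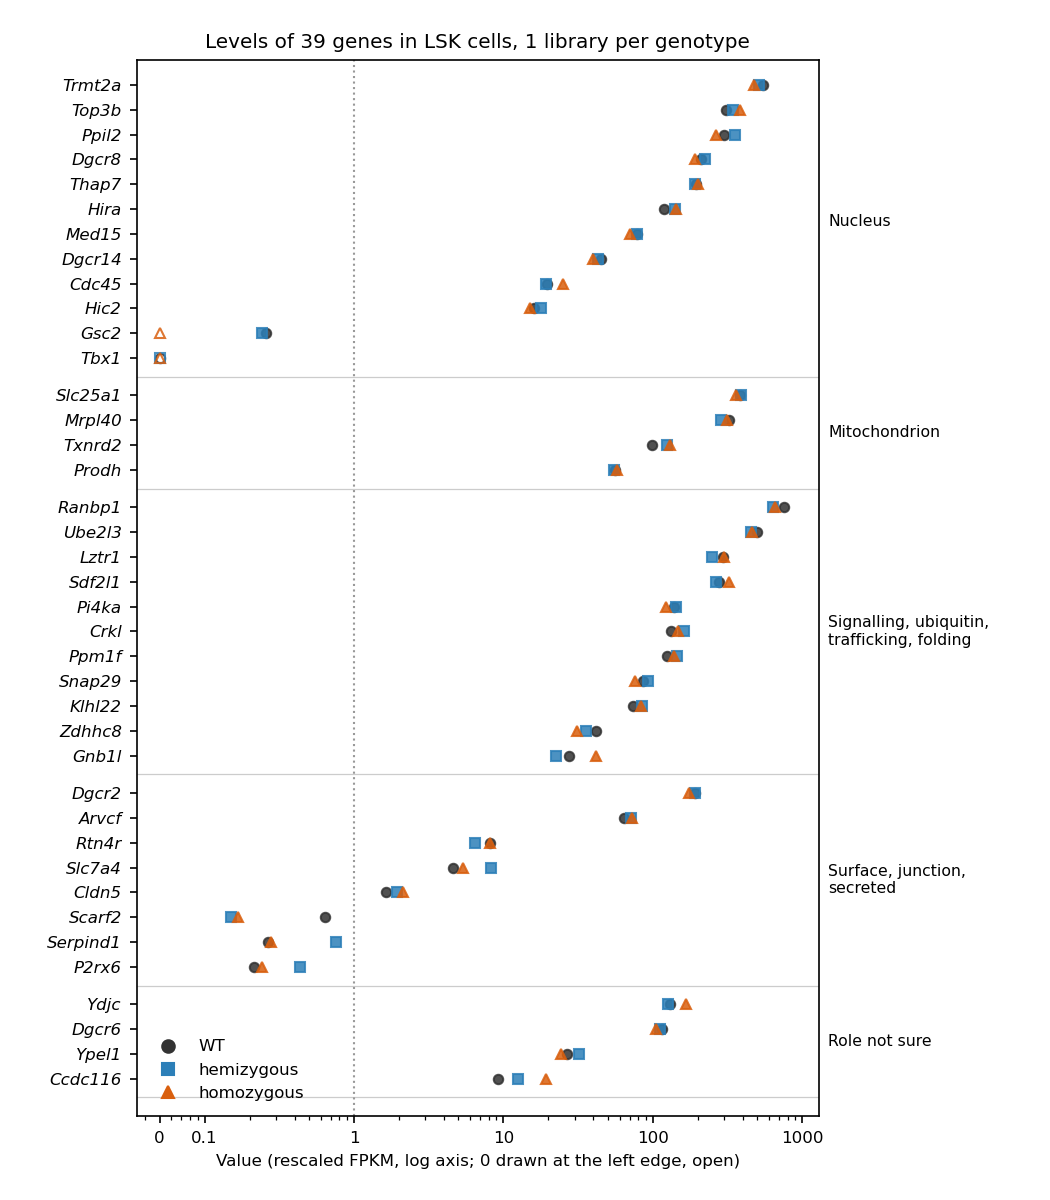
Values (rescaled FPKM, log axis) of the 39 genes in the WT, hemizygous and homozygous libraries, 1 point per library, grouped by role. The points of a gene mostly overlap, 34 genes lie to the right of the dotted line at 1, and the 5 below it are Tbx1, Gsc2, Scarf2, Serpind1 and P2rx6.

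Of the 12 genes with nuclear roles, 10 had a value of at least 1 in WT cells. Trmt2a, a tRNA methyltransferase, had values of 549.7 (WT), 519 (hemizygous) and 478 (homozygous). It was the highest of the group and lower at each step, and its homozygous versus WT log2 ratio was -0.20 (95% counting interval -0.27 to -0.13). Top3b, a topoisomerase that acts on DNA and RNA, went the other way, at 310.0, 345 and 382, and its log2 ratio was 0.30 (0.17 to 0.43) for homozygous versus WT. Ppil2, a cyclophilin with a U-box found in spliceosomes, was at 300.4, 355 and 266. Its hemizygous library was the highest and its homozygous library the lowest, and the ratio between these was -0.42 (-0.57 to -0.27).

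Dgcr8, the RNA-binding partner of Drosha in the Microprocessor that cuts primary microRNAs, had values of 211 (WT), 224 (hemizygous) and 192 (homozygous). Neither transgenic library differed from the WT beyond counting error, with log2 ratios of 0.08 (-0.06 to 0.23) and -0.14 (-0.29 to 0.02), while the homozygous was below the hemizygous library at -0.22 (-0.37 to -0.07). Drosha, Dicer1, Xpo5 and Ago2 lay outside the readable parts. Hira, the chaperone that deposits histone H3.3, was at 119, 141 and 144. Both transgenic libraries were above the WT, by log2 ratios of 0.24 (0.05 to 0.43) and 0.28 (0.08 to 0.47). Its partner Ubn1, also on chromosome 16 and no member, was at 110.0, 124 and 113.

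Cdc45, a subunit of the replicative helicase, had lower values than most of the nuclear genes, at 19.6 (WT), 19.2 (hemizygous) and 25.2 (homozygous). The homozygous library was above the hemizygous by 0.37 (0.03 to 0.71). Mcm4, the 1 gene of 10 looked up from the same helicase that was readable, was at 408, 402 and 390.4. Hic2, a zinc finger repressor known from the fetal to adult haemoglobin switch, was at 15.99, 18.0 and 15.1. Thap7 (197, 193 and 201), the Mediator subunit Med15 (78.9, 78.4 and 71.0) and the spliceosome-associated Dgcr14 (45.3, 43.2 and 39.9) had no counting interval that left out 0 in any comparison. Tbx1 was listed at 0 in all 3 libraries, and the homeobox gene Gsc2 at 0.26, 0.24 and 0.

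The 4 genes of mitochondrial proteins were all expressed. Slc25a1, the citrate carrier, had values of 383 (WT), 388 (hemizygous) and 363 (homozygous), and Mrpl40, a protein of the large mitochondrial ribosomal subunit, had 325, 287 and 315. For Slc25a1 all 3 counting intervals included 0, while Mrpl40 was lower in the hemizygous than in the WT library at -0.18 (-0.33 to -0.03). Txnrd2, the mitochondrial thioredoxin reductase, was at 98.7, 124 and 131. It was above the WT in both transgenic libraries, with log2 ratios of 0.33 (0.12 to 0.54) and 0.41 (0.20 to 0.62). Prodh, proline dehydrogenase, stayed at 55.8, 55.0 and 57.6.

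All 11 genes of signalling, ubiquitin transfer, trafficking and folding were expressed. Ranbp1, which binds Ran in the GTPase cycle of nuclear transport, was the highest of the 39 genes and ranked 11 among the 611 protein-coding genes, with values of 752 (WT), 639 (hemizygous) and 663 (homozygous). Both transgenic libraries were below the WT, by -0.23 (-0.33 to -0.14) and -0.18 (-0.28 to -0.08). Ube2l3, a ubiquitin-conjugating enzyme, was at 497, 458 and 465, and Lztr1, an adaptor of cullin 3 ligases that limits RAS signalling, was at 297, 251 and 298. Lztr1 was low in the hemizygous library alone, at -0.24 (-0.39 to -0.09) against the WT. Sdf2l1, a chaperone cofactor of the endoplasmic reticulum, was at 278, 267 and 325, highest in the homozygous library (0.23 against WT, 0.10 to 0.35).

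Crkl, the SH2 and SH3 adaptor known as a substrate of BCR-ABL, had values of 132 (WT), 162 (hemizygous) and 149 (homozygous). Only the hemizygous versus WT ratio of Crkl, 0.29 (0.07 to 0.50), lay beyond counting error. Ppm1f, a serine/threonine phosphatase, was at 125, 145 and 139, above the WT in both transgenic libraries (0.22 and 0.16). Pi4ka, which makes phosphatidylinositol 4-phosphate, was at 139, 143 and 123, and Snap29, a SNARE protein of membrane fusion, at 86.5, 92.5 and 76.7. Both had their lowest value in the homozygous library, and their log2 ratios to the hemizygous library were -0.22 (-0.42 to -0.02) and -0.27 (-0.39 to -0.15).

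Zdhhc8, a palmitoyltransferase, had values of 41.5 (WT), 36.0 (hemizygous) and 31.2 (homozygous). Its homozygous versus WT log2 ratio, -0.40 (-0.60 to -0.19), was the lowest of the 34 measured genes, and both steps were downward. Gnb1l, a WD40 repeat protein that stabilises kinases of the DNA damage response, was at 27.4, 22.5 and 41.6. The homozygous library stood above the other 2, by 0.59 (0.07 to 1.10) against WT and 0.86 (0.32 to 1.39) against hemizygous, on an estimated 48.3, 41.8 and 69.8 fragments. Klhl22, another cullin 3 adaptor, was at 73.9, 84.8 and 83.6, and its counting intervals all included 0.

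Genes of surface, junction and secreted proteins were the least expressed, with 5 of 8 at a value of 1 or more and a WT median of 3.11. Dgcr2, an adhesion receptor, was the exception, at 192 (WT), 192 (hemizygous) and 176 (homozygous). The catenin-related Arvcf was at 64.5, 72.1 and 72.8, above the WT in both transgenic libraries (0.16 and 0.17). Rtn4r, the Nogo receptor of neurons, was at 8.12, 6.47 and 8.20, and Slc7a4, a member of the cationic amino acid transporter family, at 4.58, 8.26 and 5.38. Slc7a4 was highest in the hemizygous library, with a ratio to WT of 0.73 (0.17 to 1.29) that rested on an estimated 27.9 (WT) and 52.9 (hemizygous) fragments.

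Cldn5, the tight junction claudin of endothelium, was barely detected, with values of 1.63, 1.93 and 2.14 from an estimated 8.01, 9.97 and 9.97 fragments. Its counting intervals reached from -0.62 to 1.12 for homozygous versus WT, so no difference was detectable at this depth. Of the 10 endothelial markers looked up, Cldn5 and Jam2 (1.23, 1.08 and 1.30) were in readable parts, and their summed value was 2.86, 3.01 and 3.44. The collagens Col4a1 (25.5, 31.7 and 45.2) and Col4a2 (27.1, 36.4 and 54.1) of vessel walls were higher in the homozygous library, and their part in the values of other genes was not tested. Serpind1, heparin cofactor II secreted by hepatocytes, was at 0.27, 0.76 and 0.28, and the scavenger receptor gene Scarf2 at 0.64, 0.15 and 0.17. P2rx6, an ATP-gated channel subunit, was at 0.22, 0.44 and 0.24. These last 3 genes had at most an estimated 7.99 fragments in a library, and no ratio is given for them. Of the 8 hepatocyte markers 5 were readable, Fetub and Hrg among them at 0 in all 3 libraries, and the 5 summed to between 4.53 and 5.09, most of it from Ahsg.

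For the other 4 genes no role is stated here. Ccdc116 had values of 9.17 (WT), 12.6 (hemizygous) and 19.4 (homozygous). The value was higher at each step, from an estimated 70.3, 102 and 142 fragments, and the ratio to WT was 0.42 (0.02 to 0.82) for the hemizygous library and 1.00 (0.63 to 1.38) for the homozygous one. Its neighbour Ydjc was at 130.2, 126 and 167, so that the homozygous library alone was high (0.36 against WT, 0.20 to 0.52). Exons of the 2 genes overlap on opposite strands over 299 bases, 6.64% of the exon bases of Ccdc116, and Ydjc also overlaps Ube2l3 over 1670 bases, 29.9% of its own. The strand setting is not given in the sources used here, so reads from these overlaps cannot be assigned. Ypel1 was at 26.5, 32.0 and 24.2, and Dgcr6 at 116, 113 and 105.

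The plot of 12 genes by library sets these patterns side by side. Ccdc116 and Top3b were higher at each step, Zdhhc8 and Trmt2a lower at each step, Gnb1l and Ydjc high in the homozygous library alone, and Slc7a4 and Ppil2 highest in the hemizygous library.

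**Figure D2:**
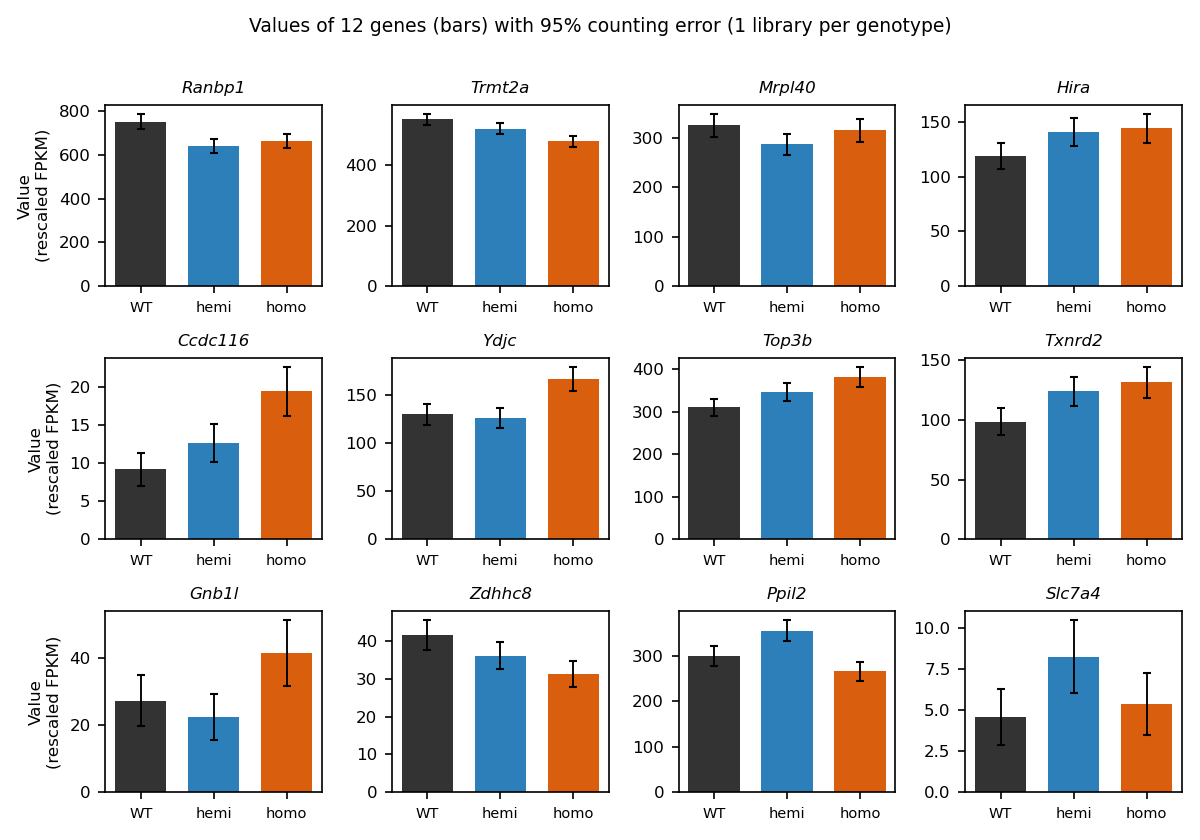
Values (rescaled FPKM, linear axis from 0) of 12 genes in the WT, hemizygous (hemi) and homozygous (homo) libraries. Bars are single libraries and error bars are 95% counting error only. Ccdc116 goes from 9.17 to 19.4 and Zdhhc8 from 41.5 to 31.2 between WT and homozygous on the deposited scale, and with libraries scaled to the same sum Zdhhc8 turns to 0.15 on the log2 scale.

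As a group the genes stayed close to their WT level in the homozygous library on the deposited scale. Of the 34 measured, 1 gene, Ccdc116, was past 2-fold, beside 4.4% of the 955 genes compared in either direction, and 32 of 34 (94.1%) lay within 1.5-fold, beside 87.5%. The median log2 ratio was 0.01 for the 34 genes and -0.04 for all 955, and 18 ratios were above 0 and 16 below. The counting interval lay above 0 for 10 of the 34 (beside 14.8% of all genes), namely Ccdc116, Gnb1l, Txnrd2, Ydjc, Cdc45, Top3b, Hira, Sdf2l1, Arvcf and Ppm1f. It lay below 0 for 6 (beside 19.3%), namely Zdhhc8, Trmt2a, Ranbp1, Ppil2, Snap29 and Dgcr2. An interval excludes 0 more readily where fragments are many, and the 34 genes had a median of 427 estimated fragments in the WT library against 239 for all genes measured. Among genes with a mean value of at least 20, the intervals above 0 were 9 of 29 (31.0%) here and 17.4% of 644 in all, and those below 0 were 6 of 29 (20.7%) and 24.7%. Of 5 genes high in erythroid cells 3 were readable, Tfrc (1280.3, 1414 and 1013), Car2 (2199.9, 2091 and 1786) and Cpox (442, 442 and 409), all lowest in the homozygous library on the deposited scale, and their part in the ratios above was not tested.

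The choice of scale bears on every direction given. Scaling all libraries to the same sum of values, which includes the mitochondrial mRNAs, moved the median of all genes compared from -0.04 to 0.49 for homozygous versus WT, and then all 34 ratios lay above 0, 32 of them with intervals above 0, around a median of 0.54. Gnb1l then passed 2-fold as well (1.14). Median-ratio scaling gave 10 intervals above and 4 below 0, beside 17.3% and 16.2% of all genes. Of all genes compared, sum scaling put 66.4% of intervals above 0 and 2.76% below. Small ratios can also change side against the median of all genes, as for Klhl22, whose homozygous versus hemizygous ratio of -0.02 lay below 0 and above that median (-0.06).

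**Figure D3:**
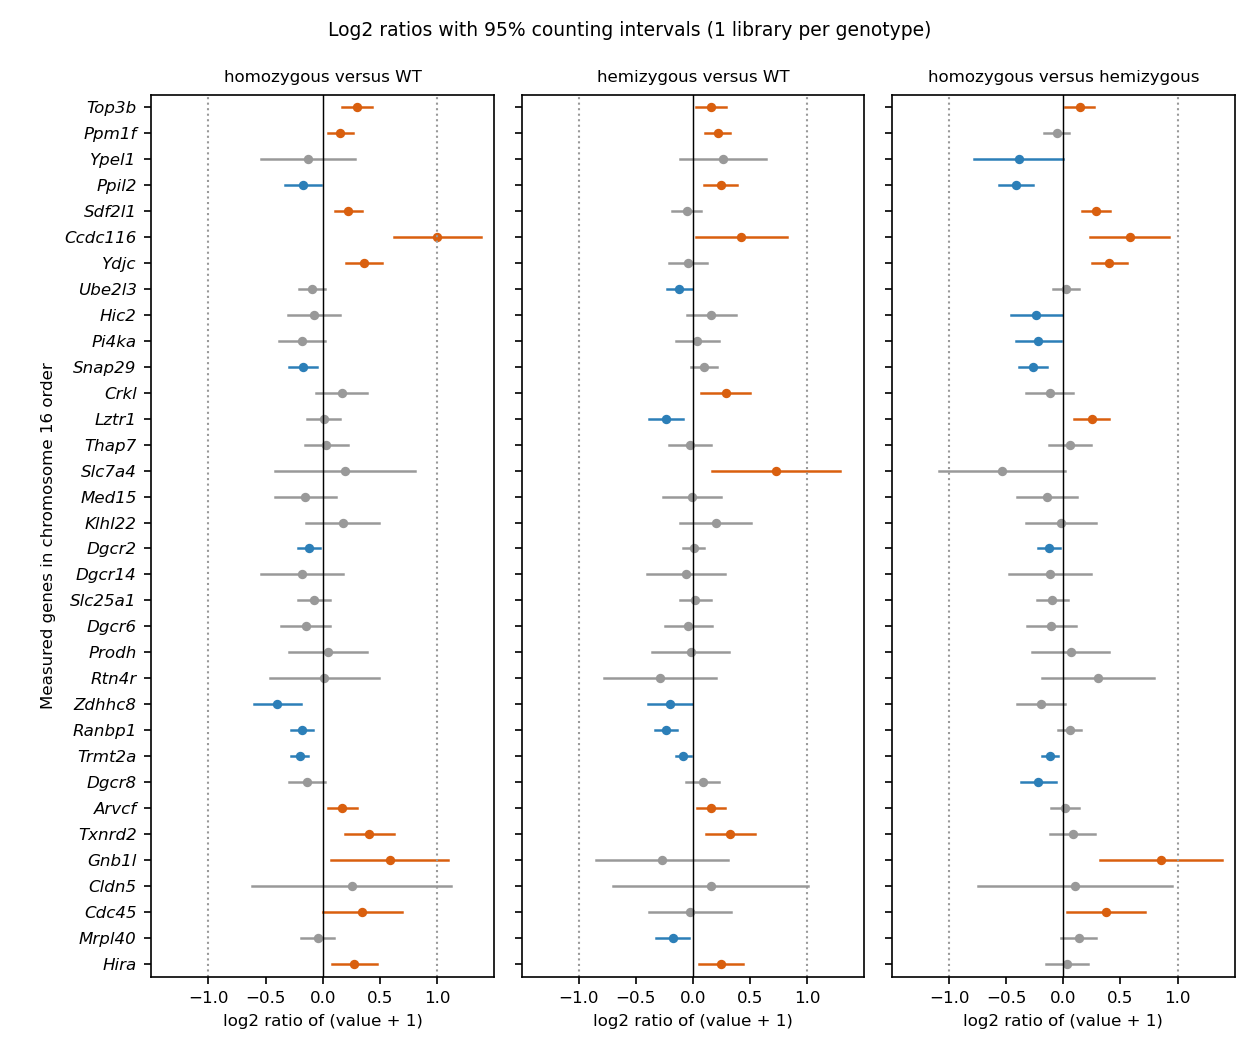
Log2 ratios of value + 1 (points) with 95% counting intervals (lines) for the 34 measured genes in chromosome order, in each of the 3 comparisons on the deposited scale. Orange intervals lie above 0, blue below and grey include 0, and dotted lines mark 2-fold. Only Ccdc116 reaches 2-fold, in the homozygous versus WT panel, and under sum scaling all 34 ratios of that panel lie above 0.

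The hemizygous library was likewise close to the WT. No gene of the 34 was past 2-fold between the hemizygous and the WT library, beside 2.73% of the 954 genes compared, and 33 (97.1%, beside 92.0%) lay within 1.5-fold, the exception being Slc7a4. The median log2 ratio was 0.01, beside 0.02 for all genes. The interval lay above 0 for 9 genes (beside 17.7%), namely Slc7a4, Ccdc116, Txnrd2, Crkl, Ppil2, Hira, Ppm1f, Top3b and Arvcf. It lay below 0 for 6 (beside 14.8%), namely Lztr1, Ranbp1, Zdhhc8, Mrpl40, Ube2l3 and Trmt2a. Under sum scaling 29 of the ratios were above 0, with the median of all genes at 0.22, and 19 intervals lay above 0 and 0 below, beside 44.1% and 2.70% of all genes.

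Between the homozygous and the hemizygous library no gene was past 2-fold either, beside 4.57% of 962 genes, and the medians were -0.0033 for the 34 genes and -0.06 for all. Gnb1l had the largest ratio (0.86), and it passed 2-fold under sum scaling (1.21). The interval lay above 0 for 7 genes (beside 9.67%), namely Gnb1l, Ccdc116, Ydjc, Cdc45, Sdf2l1, Lztr1 and Top3b, and below 0 for 8 (beside 20.9%), namely Ppil2, Ypel1, Snap29, Hic2, Pi4ka, Dgcr8, Dgcr2 and Trmt2a. Sum scaling left 3 of the 34 ratios below 0, with the median of all genes at 0.29 and 23 intervals above 0 and 0 below (beside 49.4% and 4.44% of all genes). Median-ratio scaling gave 9 above and 3 below (beside 13.6% and 15.3%). The 3 comparisons share libraries, so they are not independent of one another.

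Values were higher at each step from WT over hemizygous to homozygous for 6 of the 34 genes (17.6%, beside 13.3% of the 970 genes measured), namely Top3b, Ccdc116, Arvcf, Txnrd2, Cldn5 and Hira. They were lower at each step for 5 (14.7%, beside 20.3%), namely Med15, Dgcr14, Dgcr6, Zdhhc8 and Trmt2a. At a mean value of at least 20, the highest of the 3 libraries was within 1.25-fold of the lowest for 22 of 29 genes (75.9%), beside 71.9% of 644 genes, and the median of that fold was 1.17 here and 1.16 in all.

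The 9 genes of the distal flank (Top3b, Ppm1f, Ypel1, Ppil2, Sdf2l1, Ccdc116, Ydjc, Ube2l3 and Hic2) had a median homozygous versus WT log2 ratio of 0.16, with 5 intervals above 0 and 1 below, beside 14.8% and 19.3% of all genes. The 25 measured genes of the common deletion interval had a median of 0.01, with 5 above and 5 below, and the difference between these groups was not tested. For hemizygous versus WT these medians were 0.16 and -0.01, and for homozygous versus hemizygous they were near each other, at 0.02 and -0.02. In the latter comparison 4 intervals lay above 0 and 3 below in the flank, beside 9.67% and 20.9% of all genes. The 5 flank genes with intervals above 0 for homozygous versus WT were Top3b, Ppm1f, Sdf2l1, Ccdc116 and Ydjc. Among them, exons of Ccdc116 and Ydjc overlap each other, and those of Ydjc also overlap Ube2l3.

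Several of these genes start next to another gene on the opposite strand. Windows of 300 bases around the start, 250 before and 50 after, were found in the RefSeq promoter table (build GRCm38.p6, not the build of the deposited files) for 37 of the 39 genes, all but Ydjc and Slc7a4. The windows overlapped head to head for Ranbp1 and Trmt2a, for Mrpl40 and Hira, and for Pi4ka (second listed start) and Snap29, and with genes outside the list for Cdc45 (Ufd1), Arvcf (Tango2) and Ccdc116 (LOC115488656, over 76 bases for 1 of the listed starts and 53 for another). The starts lie 189 bases apart for Ranbp1 and Trmt2a, 113 for Mrpl40 and Hira, and 135 for Pi4ka and Snap29. The bases between them are shown because each stretch holds the start regions of 2 of the genes described, read 5′ to 3′ on the minus strand with CpG dinucleotides in capitals, at chr16:18248695-18248882, chr16:18876638-18876749 and chr16:17405866-17405999.
Ranbp1 and Trmt2a: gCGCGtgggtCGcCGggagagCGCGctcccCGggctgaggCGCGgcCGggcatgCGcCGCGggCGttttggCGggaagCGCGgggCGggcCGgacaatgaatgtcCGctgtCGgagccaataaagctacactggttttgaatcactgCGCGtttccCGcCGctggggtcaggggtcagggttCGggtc
Mrpl40 and Hira: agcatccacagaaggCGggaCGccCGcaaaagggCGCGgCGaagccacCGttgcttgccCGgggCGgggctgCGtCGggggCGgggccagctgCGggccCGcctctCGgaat
Pi4ka and Snap29: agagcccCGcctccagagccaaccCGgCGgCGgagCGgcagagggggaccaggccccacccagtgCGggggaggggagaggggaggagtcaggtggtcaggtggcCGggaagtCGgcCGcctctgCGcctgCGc

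The 3 stretches hold 26, 15 and 11 CpGs, with a GC content of 70.2%, 75.0% and 76.1%. Both genes of each pair were expressed in every library. Ranbp1 and Trmt2a, the most abundant pair, were both lower in the homozygous than in the WT library on the deposited scale (-0.18 and -0.20), as were Pi4ka and Snap29 (-0.18 and -0.17), though for Pi4ka the interval included 0 (-0.38 to 0.02) and under sum scaling all 4 ratios lay above 0. Mrpl40 and Hira differed in direction on the deposited scale, at -0.18 and 0.24 for hemizygous versus WT. Under sum scaling these ratios were 0.025 and 0.45. Cdc45 and Ufd1l (111, 123 and 98.6) also went apart on the deposited scale between the homozygous and hemizygous libraries, at 0.37 and -0.32. Some of the transcripts overlap: exons of Ranbp1 and Trmt2a share 54 bases on opposite strands, those of Pi4ka and Snap29 share 60, and those of Trmt2a and Dgcr8, whose ends face each other, share 825, or 15.5% of the exon bases of Trmt2a.

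CpG-rich promoters were common among the genes. The ratio of observed to expected CpGs was at least 0.6 in the first listed window of 29 of the 37 (78.4%), beside 36.5% of 27025 genes of all chromosomes and 72.2% of the 324 chromosome 16 genes with a WT value of at least 1. Among the 32 of the 37 with a WT value of at least 1 the count was 26 (81.2%). A CCAAT box, searched as CCAAT on both strands, was in 18 of the 37 windows (48.6%, beside 37.9% of all), and TATAAA, likewise on both strands, in 6 (16.2%, beside 14.2%).

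The 5 genes under 1 differed among themselves. Tbx1 (0.73), Gsc2 (0.80) and Scarf2 (0.82) had CpG ratios within the range of the expressed genes, while Serpind1 (0.12) and P2rx6 (0.15) had few CpGs. Among the 164 chromosome 16 genes under 1 in WT cells, 14.0% had a ratio of at least 0.6. Low CpG content did not go with low level throughout, since Ppm1f, with a ratio of 0.29, had a WT value of 125, and Ube2l3, with 0.49, had 497. The 250 bases before the start are shown for Ccdc116, the gene past 2-fold (first of 3 listed starts, ratio 0.77, minus strand, chr16:17147230-17147479), for Tbx1 as a CpG-rich promoter of a gene listed at 0 (first of 2 listed starts, minus strand, chr16:18588900-18589149) and for Serpind1 as a CpG-poor one (plus strand, chr16:17331121-17331370), with CpGs in capitals.
Ccdc116: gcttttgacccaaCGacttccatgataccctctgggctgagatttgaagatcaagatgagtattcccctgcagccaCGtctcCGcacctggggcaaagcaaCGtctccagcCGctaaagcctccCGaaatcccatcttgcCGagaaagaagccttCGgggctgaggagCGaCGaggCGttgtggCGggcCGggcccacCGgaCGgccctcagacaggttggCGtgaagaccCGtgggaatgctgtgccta
Tbx1: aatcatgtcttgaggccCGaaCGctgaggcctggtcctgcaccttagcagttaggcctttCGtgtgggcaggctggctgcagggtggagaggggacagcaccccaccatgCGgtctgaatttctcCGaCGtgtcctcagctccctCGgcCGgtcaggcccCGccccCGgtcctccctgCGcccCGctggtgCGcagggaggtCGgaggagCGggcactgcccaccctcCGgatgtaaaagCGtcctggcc
Serpind1: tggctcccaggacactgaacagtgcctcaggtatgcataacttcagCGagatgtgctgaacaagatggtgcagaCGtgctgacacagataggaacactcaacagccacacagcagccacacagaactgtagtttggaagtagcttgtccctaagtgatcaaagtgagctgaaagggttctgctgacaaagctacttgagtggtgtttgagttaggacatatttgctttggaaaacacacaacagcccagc

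These stretches hold 17 CpGs for Ccdc116, 17 for Tbx1 and 2 for Serpind1. Methylation was not analysed here, so the sequences describe the genes and not their state in these cells.

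**Figure D4:**
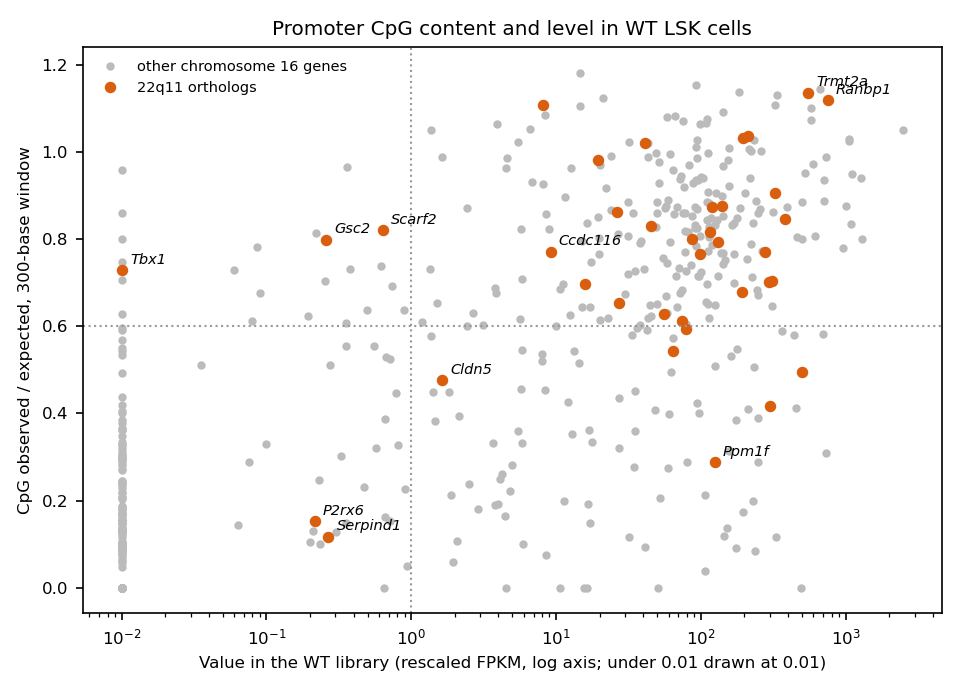
Observed over expected CpG in the 300-base promoter window (vertical axis) against the value in the WT library (rescaled FPKM, log axis) for protein-coding genes of chromosome 16 with a window, the 22q11 orthologs in orange. Most orthologs lie in the upper right with the other expressed genes, and Tbx1, Gsc2 and Scarf2 lie above the line at 0.6 with a value under 1.

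Other genes of the same mouse interval were looked up for comparison. They were chosen with earlier results of these data known. Of 19 listed, 17 were found and 13 were measured, with a median log2 ratio of -0.16 for homozygous versus WT. On the deposited scale 4 of the 13 were past 2-fold, beside 4.4% of the 955 genes compared in either direction. All 4 were lower: Vpreb1, Vpreb2, Igll1 and Car15. The first 3 encode the surrogate light chain of the pre-B cell receptor, with homozygous versus WT ratios of -1.59, -1.41 and -1.30. Sum scaling adds about 0.56 to each of these 3 ratios. Top3b, whose exons overlap Vpreb1 on the opposite strand over 108 bases, went the other way (0.30). Car15, a carbonic anhydrase, was at 4.79, 2.81 and 1.24, from an estimated 9.50 (WT) and 2.33 (homozygous) fragments. Tango2, which starts head to head with Arvcf, was at 178, 175 and 181, near its WT value in both transgenic libraries.

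Some values are uncertain because transcripts are shared. Of the 50-base stretches of the Hic2 transcripts 47.2% also occur in another listed gene, chiefly AC110573.1 on the opposite strand. For Hira 42.0% occur in Gm28539 and for Ranbp1 most of 15.9% in Gm49776, genes not used here. The shares were 31.9% for Ube2l3 and 32.2% for Ydjc, chiefly with each other, and 25.5% for Dgcr2, chiefly with Gm20518. They were 13.2% for Trmt2a, 11.4% for Dgcr8 and 10.7% for Ypel1. Ccdc116 shared 5.47% with Ydjc, and Zdhhc8, Crkl, Slc25a1 and Sdf2l1 shared 0%. How far the sharing bears on the values was not tested.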

How the data were processed

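Gene-level FPKM values with a status per estimate were deposited by the authors, 1 table per library, per the file headers. Per the submitters' processing notes, the tools were TopHat2, Bowtie2 and Cufflinks and the genome was mm9, with no versions named. Which annotation, strand setting and fragment length were used is not given in the sources used here. Deposited FPKM summed to more than the unit allows, and all libraries were divided by 4245. For a repeated identifier the highest row was taken.

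Gene identifiers were matched to GENCODE mouse release M21 (95.4% of 38205), used for gene types, lengths and order. High values stood in runs from the start of certain chromosomes, so a break was fitted per chromosome by maximum likelihood on the share of protein-coding genes at a mean deposited FPKM of at least 200000, constitutive genes and tissue-restricted families left out. The 10 segments with a log likelihood gain of at least 5 and a share of at least 25%, with the 13 mitochondrial mRNAs, were compared. These limits were settled with the values in view.

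Single-transcript genes of 1000 to 10000 bases gave the step of 1 fragment: 67.7% of 855 low values in the WT, 65.2% of 947 in the hemizygous and 67.7% of 882 in the homozygous library were whole multiples within 0.05 (10% by chance). Fragments per gene were the value times the median transcript length less an assumed 200 bases, so they are approximate. The counting error was carried to the log2 ratio of value + 1. The scripts were tested on simulated data (Python 3.11.15, numpy 2.4.6, pandas 2.3.3). With 1 library per genotype no test was run. The members, lists and thresholds were chosen with earlier results of these data known. Genes were named in full when they were among the 10 highest in WT, at least 1.5-fold different, beyond counting error or under 1 in all libraries. Some other genes of the interval are not reported here.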

Additional observations from a re-analysis of the deposited data

How the results depend on the processing

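Sum scaling changed most. Under it 2 genes were past 2-fold for homozygous versus WT (main 1) and 1 for homozygous versus hemizygous (main 0), the medians were 0.54 for homozygous versus WT, 0.22 for hemizygous versus WT and 0.35 for homozygous versus hemizygous, and 32 and 23 intervals left out 0 in the first and last comparison (main 16 and 15). The ratios below 0 went from 16 to 0, from 16 to 5 and from 17 to 3 in the 3 comparisons. Of those whose interval had lain below 0, 15 turned: for homozygous versus WT Ppil2 (0.38), Snap29 (0.38), Dgcr2 (0.44), Zdhhc8 (0.15), Ranbp1 (0.38) and Trmt2a (0.36). For hemizygous versus WT these were Ube2l3 (0.086), Trmt2a (0.12) and Mrpl40 (0.025), and for homozygous versus hemizygous Hic2 (0.10), Pi4ka (0.13), Snap29 (0.085), Dgcr2 (0.23), Trmt2a (0.24) and Dgcr8 (0.13). The mitochondrial share differs between libraries and is part of that sum, and its part in these changes was not tested.

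Median-ratio scaling moved the homozygous versus hemizygous median to 0.048. A pseudocount of 10 left 0 genes past 2-fold for homozygous versus WT. The longest transcript in place of the median length gave 22, 19 and 21 intervals off 0 in the 3 comparisons (main 16, 15 and 15), and 456, 441 and 426 of all genes (main 325, 310 and 294). Intervals below 0 went from 6 to 10 for homozygous versus WT, beside 19.3% to 26.6% of all genes. For homozygous versus hemizygous they went from 8 to 13, beside 20.9% to 30.5%. Chromosome 16 scaling gave 4 below 0 in place of 8 for homozygous versus hemizygous, beside 16.1% of all genes in place of 20.9%. Other pseudocounts, filters, chromosome 16 scaling and summed rows kept each count past 2-fold and each total of intervals off 0 within 1.5 times and each median within 0.05 of its value above. Of all genes compared, 42 were past 2-fold for homozygous versus WT, 79 under sum scaling, 4 with a pseudocount of 10 and 22 at a minimum of 5. For hemizygous versus WT 26 became 43, 1 and 8 with pseudocounts of 0.1 and 10 and the minimum of 5, and for homozygous versus hemizygous 44 became 74, 1 and 19. Under sum scaling, intervals of all genes off 0 went from 325 to 677 for homozygous versus WT and from 310 to 451 for hemizygous versus WT. For homozygous versus hemizygous they went from 294 to 534. The main split of all genes for homozygous versus hemizygous, 93 above and 201 below, was 131 and 147 under median-ratio scaling. No paired analysis was possible because each genotype has 1 library, and no library could be left out.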
